A study of Mus musculus with 8 samples.

Results

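Of 8 arrays of mouse cornea RNA, 3 held high levels of transcripts of cornified epidermis, the hardened outer layers of skin, and the other 5 did not. The arrays were chosen by the signal of Krt10, a keratin of the upper skin layers, which has 1 probe set on these arrays. The 3 arrays at a signal of 1000 or more were TGFB 1, TGFB 2 and wildtype 2, and the 5 below it were TGFB 3, TGFB 4, wildtype 1, wildtype 3 and wildtype 4. The name TGFB stands for mice that overexpress TGF-beta, a secreted growth factor of wound repair, and wildtype for their littermates. Each genotype had 4 arrays, of total RNA from the cornea of the eye. The labels used here give no isoform, promoter, age, sex or number of animals, nor do they say that arrays come from separate animals, so a p-value here covers the array-to-array spread alone, and that spread may be technical. No scan date or other batch is given in the sources used here.

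Skin and cornea are both covered by a layered epithelium that renews itself from basal cells. In skin, the cells that leave the basal layer switch to Krt1 and Krt10, fill with filaggrin, cross-link a protein envelope under the membrane and release lipids, and so become the dead cornified layer that keeps water in. The healthy corneal epithelium stays wet and clear, expresses Krt12 in place of Krt1 and Krt10, and does not cornify, while the lid skin next to it does.

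Krt10 gave signals of 11198 in TGFB 1, 10154 in TGFB 2 and 8494 in wildtype 2. In the arrays below the threshold it gave 169 in TGFB 3, 201 in TGFB 4, 211 in wildtype 1, 409 in wildtype 3 and 139.8 in wildtype 4. The lowest array inside the threshold was thus at 8494 and the highest outside at 409, with nothing between. Lists of signals below keep this order of arrays, the 3 first and the 5 after them. The other 3 markers of the class parted the same arrays. Krt1, the partner of Krt10 in the keratin filament, gave 4391, 5449 and 2327 against 2.93, 31, 12.6, 28.3 and 3.81. Flg, which encodes the filament-bundling protein filaggrin, gave 3404, 4957 and 2068 against 6.33, 15.4, 1.86, 33 and 13.9. Krtdap, a secreted protein of differentiating keratinocytes, gave 5346, 7321 and 3301 against 154, 157, 98.6, 315 and 163. Splitting the arrays at the widest gap of Krt1, of Flg or of Krtdap gave the classes of Krt10 for all 8 arrays. TGFB 1 and TGFB 2 lay above wildtype 2 for all 4 markers, and wildtype 3 was the highest of the 5 for Krt10, Flg and Krtdap.

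**Figure D1:**
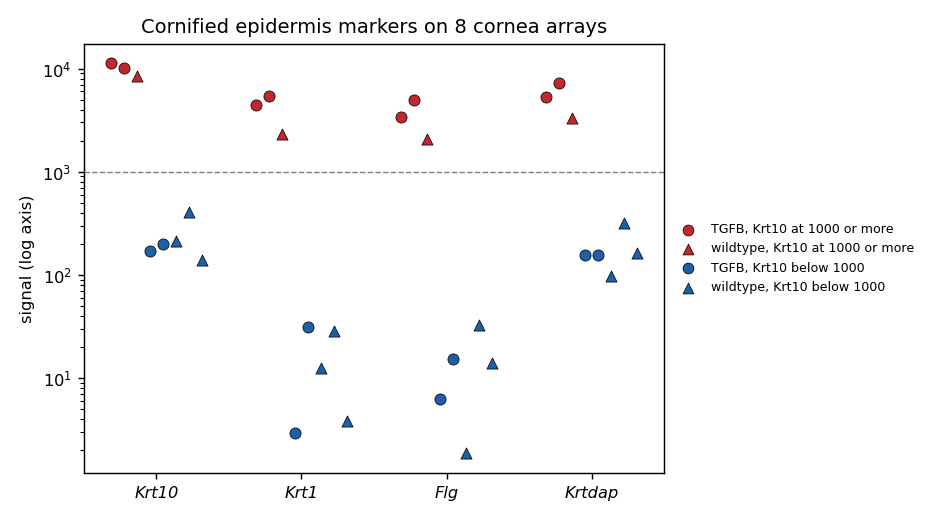
Signals (log axis) of Krt10, Krt1, Flg and Krtdap on the 8 arrays, 1 point per array; circles are TGFB and triangles wildtype arrays, red those with a Krt10 signal of 1000 or more, and the dashed line marks 1000. For each gene the 3 red points lie above all 5 blue points.

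The class cut across the labelled groups. It held 2 of 4 TGFB and 1 of 4 wildtype arrays (Fisher's exact test, two-sided p = 1, where 0.143 is the smallest p that 3 arrays in 8 allow). Because the arrays were sorted on these very data, every class difference below is a description with no test, and its standard error (SE) shows only the spread between arrays. Differences are on the log2(signal + 16) scale, arrays with cornified transcripts minus arrays without, with genotype as a covariate. The scale understates the change of dim genes. A gene is counted as higher or lower when the classes do not overlap and the difference is at least 2, a factor of 4. In bulk tissue, fewer cells of a type and less RNA per cell cannot be told apart.

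Across 18193 genes, 149 were higher in the arrays with cornified transcripts (0.819%) and 18 were lower (0.0989%). The genes higher by the most were those of the last steps of cornification, and the lower ones were mostly lens crystallins. Of the 149, 76 were higher by at least 3 (8-fold) and 26 by at least 5 (32-fold), while 12 of the 18 were lower by at least 3. The median over all genes was -0.0047. Counting genes of any size whose classes do not overlap gave 1062 higher (5.84%) and 692 lower (3.80%). Without wildtype 2 the count of lower genes was 38, and of higher genes 220.

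Among 7 suprabasal epidermal keratins measured, 3 were higher, with a list median of 1.44. One of the 3 is Krt10, whose signal sorted the arrays, so its place in the count and its difference of 5.47 were fixed by the sort and say nothing about the list. The others were Krt1 at 6.92 (SE 0.39) and Krt78, another keratin of stratified epithelium, at 3.22 (SE 0.37). Krt77, a keratin of skin and sweat ducts, differed by 1.44 (SE 0.30), and its classes did not overlap. Krt2, a keratin of the spinous and granular layers, was dim, with 7.28, 122 and 4.13 against 1.01 to 4.14 in the 5 arrays. TGFB 2 stood far above the rest, wildtype 2 lay within the range of the 5, and the classes overlapped. Krt2 was chosen after its values were seen.

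The proteins of the cornified envelope formed the largest group. Of 44 measured genes for the envelope and its precursors, 28 were higher and 0 lower, with a median of 3.45. Lce1c, of the late cornified envelope family, had the largest difference of all genes at 7.41 (SE 0.48), from signals of 5091, 7210.4 and 3453 against 3.51, 20.8, 5.74, 53.9 and 1.46. Wildtype 3 held the highest of the 5 lower signals, at 53.9, and the classes lay far apart. Hrnr, encoding the filaggrin-like hornerin, differed by 7.26 (SE 0.35), with 3545, 4480.4 and 1844 against 0.17 to 15.4. Flg itself differed by 6.79 (SE 0.37). Lce1m, Lce1f, Lce1a2 and Lce1d followed at 7.09, 6.87, 6.72 and 6.63. Members of the Lce1 family are near-identical, so probe sets may share signal between them, and their single values are uncertain. Lce1f was read by a second, dimmer probe set, which gave 3.28.

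Further genes of this group ranged from large differences to none. Crct1, a small cysteine-rich protein of the same gene cluster, differed by 6.79 (SE 0.46). Calm4, the calmodulin-like skin protein, gave 6762, 8501 and 4198 against 32.6, 48.7, 8.77, 77 and 75.5, a difference of 6.68 (SE 0.46). The main envelope protein loricrin (Lor) gave 5176, 5542 and 3549.5 against 211, 153, 38.3, 228 and 104, a difference of 4.84 (SE 0.42), and its other probe sets differed by 6.72 and 1.44. Involucrin (Ivl), an early scaffold of the envelope, gave 1645, 3683 and 618 against 11.8, 11.3, 46.3, 22.1 and 18.2, a difference of 5.37 (SE 0.53). For Lor all 3 arrays lay within a factor of 2 of each other, while for Ivl wildtype 2 lay well below TGFB 2. Krtdap differed by 4.74 (SE 0.36), and Csta1, the protease inhibitor cystatin A that is cross-linked into envelopes, by 3.20 (SE 0.29). Of the transglutaminases that cross-link the envelope, Tgm1 differed by 1.27 (SE 0.32), with overlapping classes. The 2 probe sets of Tgm3 did not give the same result. The brighter one by mean overlapped, at 0.30 (SE 0.20), while the other gave 114, 214 and 37.6 against 3.36, 4.74, 1.13, 5.13 and 3.65, without overlap, a difference of 2.41. The small proline-rich gene Sprr3 was dim on all arrays (3.07 to 18.5 against 4.45 to 14.4) and differed by -0.032 (SE 0.23). Lor, Ivl, Tgm1, Tgm3 and Sprr3 were chosen after their values were seen.

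Many of these genes lie together in the epidermal differentiation complex on mouse chromosome 3. Between S100a1 and S100a10, the RefSeq table of GRCm38.p6 lists 70 protein-coding genes, of which 48 were measured. Of these, 24 were higher and 0 lower, with a median of 2.30. The neighbours S100a8 and S100a9, which encode the antimicrobial protein calprotectin, differed by -1.19 (SE 0.85) and -0.96 (SE 0.80), with overlapping classes. S100a9 was chosen after its values were seen.

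The start sites of these genes give a view of what the members share that the sort did not use. Promoter sequences were taken from RefSeq (GRCm38.p6), and a sequence was found for 115 of the 149 higher genes and for 14452 of all genes measured. The motif TGACTCA, the site of AP-1 factors such as Fos and Jun, which reads TGAGTCA on the opposite strand, was searched on both strands in the 250 bases before each start. It was present in 17 of the 115 (14.8%) and in 553 of the 14452 (3.83%). The looser motif TGANTCA, which takes in TGACTCA and also allows A or T at its centre, was present in 26 (22.6%) and in 806 (5.58%). The letters TATAAA, searched in the same way, were present in 31 (27%) and in 1303 (9.02%). A match to TATAAA cannot overlap a match to either of the others. The median GC content of these windows was 50.8% for the higher genes and 57.6% for all, and its part in these shares was not tested. The 149 include near-identical Lce1 genes, so their promoters may not be independent of each other. The last 120 bases before the start are shown for the 2 sorting and class markers Krt10 and Krtdap, for the envelope genes Lor, Ivl and Flg, and for Krt12, the keratin of the corneal epithelium, as a contrast. Each runs 5′ to 3′ on the strand of the gene, and capitals mark a match to TGANTCA. The match of Flg is of the looser kind, and those of Krtdap, Lor and Ivl are of the AP-1 form. The genes shown were picked without a rule, so their matches do not stand for the 115, of which 22.6% held TGANTCA.
Krt10: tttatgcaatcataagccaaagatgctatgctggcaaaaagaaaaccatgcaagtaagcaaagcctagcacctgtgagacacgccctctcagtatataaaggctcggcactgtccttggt
Krtdap: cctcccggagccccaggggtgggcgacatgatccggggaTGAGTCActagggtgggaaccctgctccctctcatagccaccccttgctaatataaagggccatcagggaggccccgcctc
Lor: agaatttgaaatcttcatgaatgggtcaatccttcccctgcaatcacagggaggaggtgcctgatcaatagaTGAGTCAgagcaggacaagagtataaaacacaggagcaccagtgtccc
Ivl: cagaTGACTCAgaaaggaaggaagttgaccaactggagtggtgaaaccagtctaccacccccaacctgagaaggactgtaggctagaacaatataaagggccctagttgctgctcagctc
Flg: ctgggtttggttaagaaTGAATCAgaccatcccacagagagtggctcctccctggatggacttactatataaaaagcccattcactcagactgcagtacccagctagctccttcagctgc
Krt12: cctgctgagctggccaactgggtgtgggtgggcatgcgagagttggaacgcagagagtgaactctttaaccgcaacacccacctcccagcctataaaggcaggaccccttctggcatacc
The stretches lie at chr11:99389365-99389484 on the minus strand for Krt10, chr7:30787785-30787904 on the plus strand for Krtdap and chr3:92083143-92083262 on the minus strand for Lor. Those of Ivl, Flg and Krt12 lie at chr3:92573736-92573855 on the minus strand, chr3:93273426-93273545 on the plus strand and chr11:99422260-99422379 on the minus strand. Krtdap, Lor, Ivl and Flg each held 1 match in these 120 bases, beginning 81, 48, 116 and 103 bases before the start. Krt10 and Krt12 held none there, which says only that these letters are not in this window.

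Some proteases of the outer skin layers, and some of the inhibitors that hold them back, were also high in the 3 arrays. Of 22 such genes, 9 were higher and 0 lower, with a median of 1.55. The classes did not overlap for 15 that were higher and 1 that was lower, beside 5.84% and 3.80% of all genes. The lowest difference in the list was -1.98, just short of the limit. Klk5 and Klk7, kallikreins that cut the last junctions so that dead cells are shed, differed by 5.58 (SE 0.34) and 5.58 (SE 0.40). Klk7 gave 1802, 3082 and 657 against 12, 12.2, 6.36, 20.6 and 16.6, with wildtype 2 the lowest of the 3. Serpinb12 and Serpina12, serine protease inhibitors, differed by 5.97 (SE 0.34) and 5.44 (SE 0.29). Spink5, the kallikrein inhibitor LEKTI that is lost in Netherton syndrome, differed by 3.87 (SE 0.36). Casp14, a protease of filaggrin breakdown, was read differently by its 2 probe sets. The brighter one by mean gave 100.3, 142 and 104 against 122, 128, 49.7, 26.7 and 75.8, with overlapping classes, at 0.36 (SE 0.30). The other gave 530.3, 763 and 213 against 1.17, 2.93, 0.59, 0.72 and 1.18, without overlap, a difference of 4.57, and would raise the count to 10 of 22. Among the 147 genes of all lists with several probe sets and not counted as higher or lower, another probe set passed the same limits for 3. These were Casp14, Tgm3 and the fatty acid elongase Elovl4. In the other direction, 17 list genes with several probe sets were counted, and for 11 of them at least 1 other probe set did not pass. Dsc3 and Shh, for example, had dimmer probe sets that overlapped, at 0.66 and 0.08. Spink5, Casp14 and Elovl4 were chosen after their values were seen.

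Genes that make and carry the lipids of the skin barrier behaved likewise, with 9 of 26 higher, 0 lower and a median of 1.85. Acer1, an epidermal ceramidase, differed by 4.36 (SE 0.35), from 449, 753 and 162 against 0.5 to 3.04 in the 5 arrays. Sptlc3, a subunit of the enzyme that starts sphingolipid synthesis, differed by 3.82 (SE 0.42). Alox12b, the lipoxygenase that prepares ceramides for the envelope, gave 269.6, 828 and 70.5 against 1.66, 1.65, 0.61, 1.17 and 1.15, a difference of 3.75 (SE 0.51). TGFB 2 was the highest array for all 3 genes and wildtype 2 the lowest of the 3 with cornified transcripts. Sult2b1, which makes cholesterol sulfate, differed by 3.21 (SE 0.26). The lipid transporter Abca12 gave 24, 41.2 and 21.9 against 13.1, 18.1, 14.7, 18.6 and 31.7 and overlapped, at 0.36 (SE 0.22), and it was chosen after its values were seen. This count depended on 1 array, since 17 of the 26 were higher when wildtype 2 was left out.

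Cell junction genes were split. Of 20 genes for desmosomes, tight and gap junctions, 5 were higher and 0 lower, with a median of 0.81. Dsc1, the desmocollin of the outermost living cells, gave 2976, 3770.5 and 1242 against 4.42, 6.64, 5.25, 15.1 and 11.1, a difference of 6.56 (SE 0.34). Cdsn, corneodesmosin, which glues cornified cells, differed by 4.03 (SE 0.39). Dsg1a, a desmoglein of the upper layers, differed by 3.02 (SE 0.43), Gjb5, a connexin of skin, by 2.74 (SE 0.29), and Dsc3, the desmocollin of the lower layers, by 2.64 (SE 0.50). Dsc2, the desmocollin of most simple and stratified epithelia, overlapped with 404, 204 and 873 against 554, 592, 557, 750.4 and 316, at -0.22 (SE 0.42). Dsp, the plaque protein common to all desmosomes, differed by 0.71 (SE 0.24). Dsc1, Acer1, Sptlc3, Serpina12 and Serpinb12 each had a dimmer probe set with a smaller difference, of 1.51, 1.50, 0.56, 0.99 and 1.70. Dsc2, Dsc3 and Dsp were chosen after their values were seen.

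Transcription factors of epidermal differentiation differed by less but in the same direction. Of 21, 2 were higher by at least 2, namely Pou3f1 at 2.50 (SE 0.29) and Gata3 at 2.27 (SE 0.29). The classes did not overlap for 16 of the 21, which were all higher, beside 5.84% of all genes, and the list median was 1.21. Trp63, which encodes p63, the factor that sets up stratified epithelia, gave 1089.8, 1375 and 834 against 335, 323, 281, 391 and 139, a difference of 1.77 (SE 0.29). All 3 arrays with cornified transcripts lay above all 5 without on this probe set, although p63 is also made in the basal cells of the cornea. The dimmer probe sets of Trp63 overlapped, at 1.65, 0.079 and 0.081. Ovol1, a factor that stops proliferation as cells leave the basal layer, differed by 1.76 (SE 0.39). Klf4 and Grhl3, both needed for the skin barrier, differed by 1.05 (SE 0.19) and 1.36 (SE 0.27), and were chosen after their values were seen. In place of these 2, the count was 4 without wildtype 2 and 1 without TGFB 3.

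**Figure D2:**
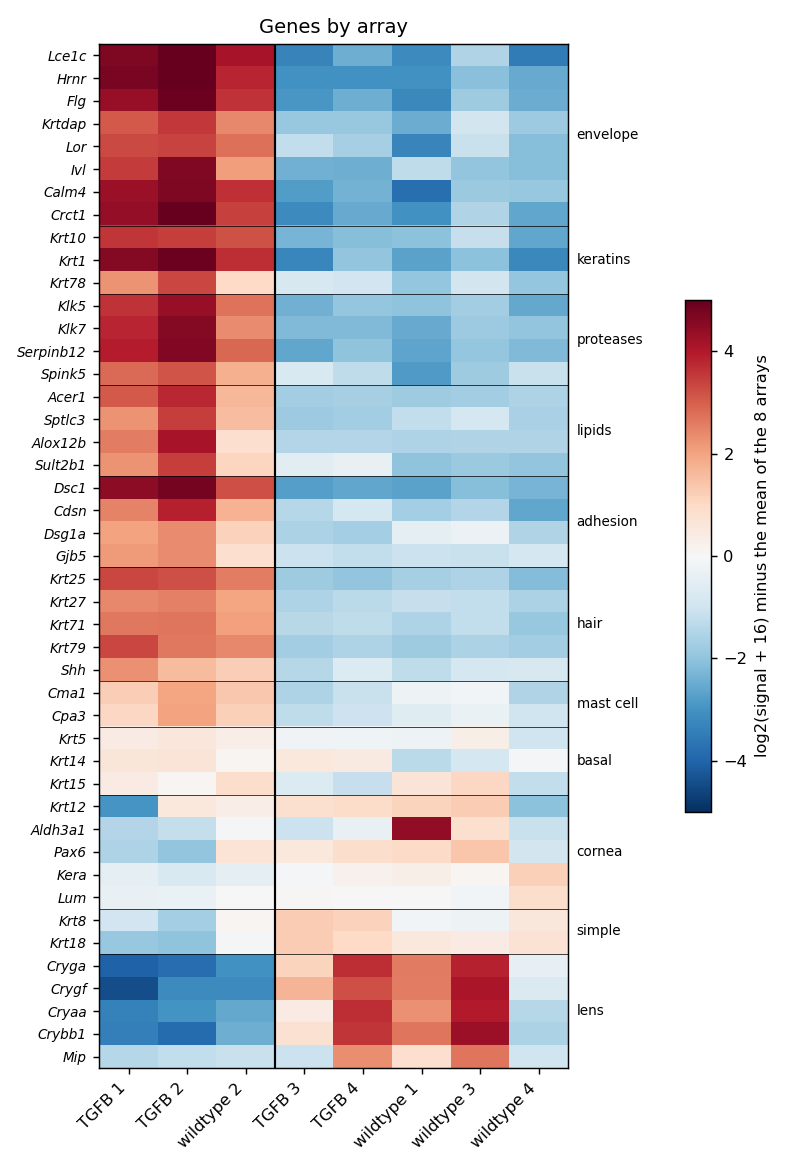
Values of 45 genes on the 8 arrays, as log2(signal + 16) minus the mean of the 8 arrays for each gene, red above and blue below that mean; the black line parts the 3 arrays with a Krt10 signal of 1000 or more (left) from the 5 below it. Genes of the cornified layer, hair keratins and mast cell proteases are red on the left, crystallins are blue on the left and vary among the 5 arrays on the right, and Krt12 is low in TGFB 1 and wildtype 4.

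Basal keratinocyte genes, which skin and cornea share, differed little. Of 13, 0 were higher by 2, the classes did not overlap for 4 (all higher, beside 5.84% of all genes), and the median was 0.45. Krt5, the basal keratin of both tissues, gave 6103, 6844 and 5829.9 against 4020.4, 3990.5, 3822, 5692 and 2302, a difference of 0.68 (SE 0.27). Its partner Krt14 gave 4872, 5045 and 3408 against 4609.6, 4419, 1274, 1742 and 3058 and differed by 0.44 (SE 0.29). For Krt14 the 2 low arrays were wildtype 1 and wildtype 3, and the classes overlapped. Krt15, the basal keratin of limbus and hair bulge, differed by 0.98 (SE 0.47) and overlapped as well. The 4 genes without overlap were Dst, Col17a1, Krt5 and Itga6, which encode a hemidesmosome linker, a basement membrane collagen, the keratin and an integrin. Itga6 differed by 0.67 (SE 0.16) and was chosen after its values were seen. Dst differed by 1.55 (SE 0.26) and Col17a1 by 0.82 (SE 0.32). The next brightest probe set of Dst differed by 0.27 with overlap, and the dimmer ones by 1.18 without and 0.58 with overlap. For Itga6 the dimmer probe set differed by 0.38 and overlapped.

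Keratins and cytokines of wounded or stressed skin had no common direction, at 2 of 11 higher, 0 lower and a median of -0.34. The 2 were Krt16, a keratin of activated epidermis, at 2.12 (SE 0.30), and Il1f6, the cytokine IL-36 alpha, at 2.54 (SE 0.31). Krt16 was only just without overlap, with wildtype 2 at 237 and TGFB 4, without cornified transcripts, at 233. Without wildtype 2, 1 of the 11 was higher. Krt6a, which pairs with Krt16, gave 3767, 2777 and 4093 against 6193, 6656, 2993, 3594 and 3673 and differed by -0.45 (SE 0.27), with TGFB 3 and TGFB 4 the highest arrays. Lcn2, an iron-binding protein of inflamed epithelia, gave 68.6, 12.4 and 13.1 against 782, 583, 9.28, 39.3 and 286. It was high in TGFB 3, TGFB 4 and wildtype 4, all without cornified transcripts, though the classes overlapped (-2.77 (SE 0.84)). Krt6a was chosen after its values were seen.

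Among genes of other skin parts, those of the hair follicle were high in the 3 arrays, with 9 of 28 higher, 0 lower and a median of 0.65. The mean of the list was 6.49 to 6.83 (log2) in the 3 arrays and 5.17 to 5.50 in the 5. Krt25, a keratin of the inner root sheath that encases the growing hair, gave 823, 753 and 466 against 7.91, 4.6, 9.8, 11.9 and 2.23, a difference of 4.82 (SE 0.23). Krt71 and Krt27, further inner root sheath keratins, differed by 3.81 (SE 0.19) and 3.64 (SE 0.19). Krt79, a keratin of the cells that open the hair canal, gave 1062, 637 and 548 against 15.2, 20.1, 14.9, 19.3 and 15.3, a difference of 4.42 (SE 0.21), and TGFB 1 was its highest array. Krt28 and Krt73 of the inner root sheath, Krt35 of the hair matrix and Tchh, the inner root sheath protein trichohyalin, differed by 2.89, 2.08, 2.82 and 2.11. All 4 were chosen after their values were seen.

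Sonic hedgehog patterns the growing follicle. Shh, the ligand, was also counted as higher and gave 618, 381 and 289.6 against 33.3, 65.4, 39, 54.7 and 58.6, a difference of 2.65 (SE 0.27). Ptch1, its receptor and target gene, differed by 1.83 (SE 0.45), and Gli1, its target transcription factor, by 1.13 (SE 0.31). Neither reached 2, while for both the classes did not overlap. The dimmest probe set of Ptch1 overlapped, at -0.19, and another did not, at 1.10. The hair shaft keratins Krt31 and Krt33b were not among the higher genes, at 0.51 (SE 0.22) and -0.04 (SE 0.14), both with overlapping classes. Krt35 of the hair matrix, in contrast, was counted as higher, at 2.82. Krt75, of the companion layer, was bright on both sides, with 363, 237 and 278 against 352, 511, 68.1, 241 and 149. Shh, Ptch1, Gli1, Krt31, Krt33b and Krt75 were chosen after their values were seen.

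Of 12 genes of sebaceous and meibomian glands, the oil glands of skin and lid, 0 were higher by 2, and the median was 0.61. The classes did not overlap for 4, all higher, beside 5.84% of all genes. They were Far2 at 1.93 (SE 0.41), Acsbg1 at 1.77 (SE 0.22), Scd1 at 0.95 (SE 0.22) and Elovl3 at 0.92 (SE 0.17), all enzymes of fatty acid or wax metabolism. Leaving out TGFB 1 gave 1 gene higher by 2, and leaving out wildtype 2 gave 2. Of 10 adipocyte genes, 0 were higher, with a median of 0.064, and Adipoq, the fat cell hormone adiponectin, was above its other values in TGFB 2 (135).

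Mast cell proteases were the members of the immune cell list that were high. Of 21 genes of skin and corneal immune cells, 2 were higher and 0 lower, with a median of 0.15. Cma1, mast cell chymase, gave 808, 1383 and 867 against 105, 145, 281, 305 and 107, a difference of 2.52 (SE 0.38). Cpa3, mast cell carboxypeptidase, gave 822, 1619 and 898 against 153, 183, 252, 302 and 186, a difference of 2.31 (SE 0.29). Wildtype 1 and wildtype 3 were the highest of the 5 for both. Tpsb2 and Mcpt4, further mast cell proteases, differed by 1.56 (SE 0.21) and 1.08 (SE 0.31), and their classes did not overlap. The dimmer probe set of Tpsb2 overlapped, at 0.23. Langerhans cells, the dendritic cells of the epidermis, are marked by Cd207, which was dim throughout (1.32 to 1.94 against 0.89 to 9.72) and differed by -0.31 (SE 0.17). The antigen presentation gene Cd74 differed by 0.071 (SE 0.27). Without TGFB 2, 1 of the 21 was higher. The mean of the list was 6.56 to 6.98 (log2) in the 3 arrays and 6.13 to 6.65 in the 5. Mcpt4, Cd207 and Cd74 were chosen after their values were seen.

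Beyond the lists, 80 of the 149 higher genes were in none of them. Examples from these 80, chosen after their values were seen, are genes known from epidermis. Fam25c, which the rule for named genes took by size, differed by 6.33 (SE 0.42). Them5, a thioesterase, gave 2463, 4596 and 1062 against 4.43, 18.1, 9.08, 37.9 and 16.2, a difference of 6.12 (SE 0.47). Lgals7, which encodes galectin-7 of stratified epithelia, differed by 4.61 (SE 0.35), and Ly6d, a surface protein of keratinocytes, by 4.39 (SE 0.34). Hal, the histidine ammonia-lyase that makes urocanic acid in the cornified layer, gave 740.1, 1337 and 213 against 2.69, 12.7, 6.37, 18.6 and 5.4, a difference of 4.47 (SE 0.47). Il1f5, the antagonist of the IL-36 receptor, differed by 3.79 (SE 0.40), and Cst6, an inhibitor of the proteases that act on transglutaminases, by 3.45 (SE 0.40).

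Genes of the corneal epithelium had no common direction. Of 12 of them, 0 were higher and 0 lower by 2, with a median of -0.51, and leaving out wildtype 2 gave 1 in each direction. Krt12, its defining keratin, gave 289, 3467 and 3008 against 4161, 4551, 5146, 5766 and 562, a difference of -1.09 (SE 1.01). TGFB 1 and wildtype 4, 1 array of each class, were low, and the other 6 were high. Pax6, the master regulator of eye development, gave 127, 91.6 and 663 against 590.4, 746, 799, 1068 and 206, a difference of -1.30 (SE 0.65). It was low in TGFB 1, TGFB 2 and wildtype 4, and wildtype 2 was level with the high arrays. Without wildtype 2, the Pax6 difference was -2.45. Aldh3a1, the crystallin-like enzyme of the mature corneal epithelium, was 4060.1 in wildtype 1 and 52.5 to 315 in the other 7. The classes did not overlap for 3 of the 12, beside 5.84% higher and 3.80% lower of all genes. Klf5, a transcription factor of stratified epithelia, and Slurp1, a secreted protein of skin and cornea, were higher, at 1.72 (SE 0.34) and 1.64 (SE 0.42). Clu, the chaperone clusterin, was lower, at -1.14 (SE 0.20). The dimmest probe set of Klf5 overlapped, at 0.12, and another did not, at 1.17.

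In the stroma, 0 of 16 keratocyte genes were higher or lower by 2, with a median of -0.31. Kera, encoding the corneal proteoglycan keratocan, gave 2531, 2073 and 2538 against 3307, 4154, 4329, 3815 and 8110.1, a difference of -0.83 (SE 0.26), and did not overlap. Wildtype 4 was its highest array. The proteoglycans Lum and Dcn differed by -0.32 (SE 0.24) and -0.14 (SE 0.18), with Lum at 8788 in wildtype 4 and 3728 to 4965 elsewhere. Of 11 genes of the corneal endothelium, the pump layer at the back of the cornea, 0 were higher or lower by 2, with a median of -0.53. The classes did not overlap for 4 of them, all lower, beside 3.80% of all genes. These were Col8a1 and Col8a2, collagens of Descemet's membrane, at -1.13 (SE 0.24) and -1.03 (SE 0.23), the bicarbonate transporter Slc4a4 at -0.95 (SE 0.32), and the adhesion molecule Ncam1 at -0.67 (SE 0.20). Dimmer probe sets of Slc4a4 and Ncam1 were mixed. For Slc4a4 one did not overlap, at -1.16, and others did, as at -0.80. For Ncam1 one did not overlap, at -0.75, and others did, as at 0.24 and 0.36. Ncam1 was chosen after its values were seen.

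Among 19 conjunctival and simple epithelial genes, 0 were higher and 1 was lower, with a median of -0.25. The one was Krt18, a keratin of simple epithelia, which gave 426, 386 and 1563 against 3925, 3219, 2326, 2161 and 2649.8, a difference of -2.02 (SE 0.44). Its value in wildtype 2 was just below the lowest of the 5, and the difference was under 2 without any one of TGFB 1, TGFB 2, TGFB 3 or TGFB 4. Its partner Krt8 gave 1349, 806 and 2876 against 6422, 5916, 2416, 2215 and 3987, and wildtype 2 lay among the arrays without cornified transcripts (-1.43 (SE 0.50)). The conjunctival keratins Krt4 and Krt13 differed by 0.84 (SE 0.44) and 0.31 (SE 0.52), with overlap. Krt4 was highest in wildtype 2, at 1766 against 133 to 762 elsewhere.

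**Figure D3:**
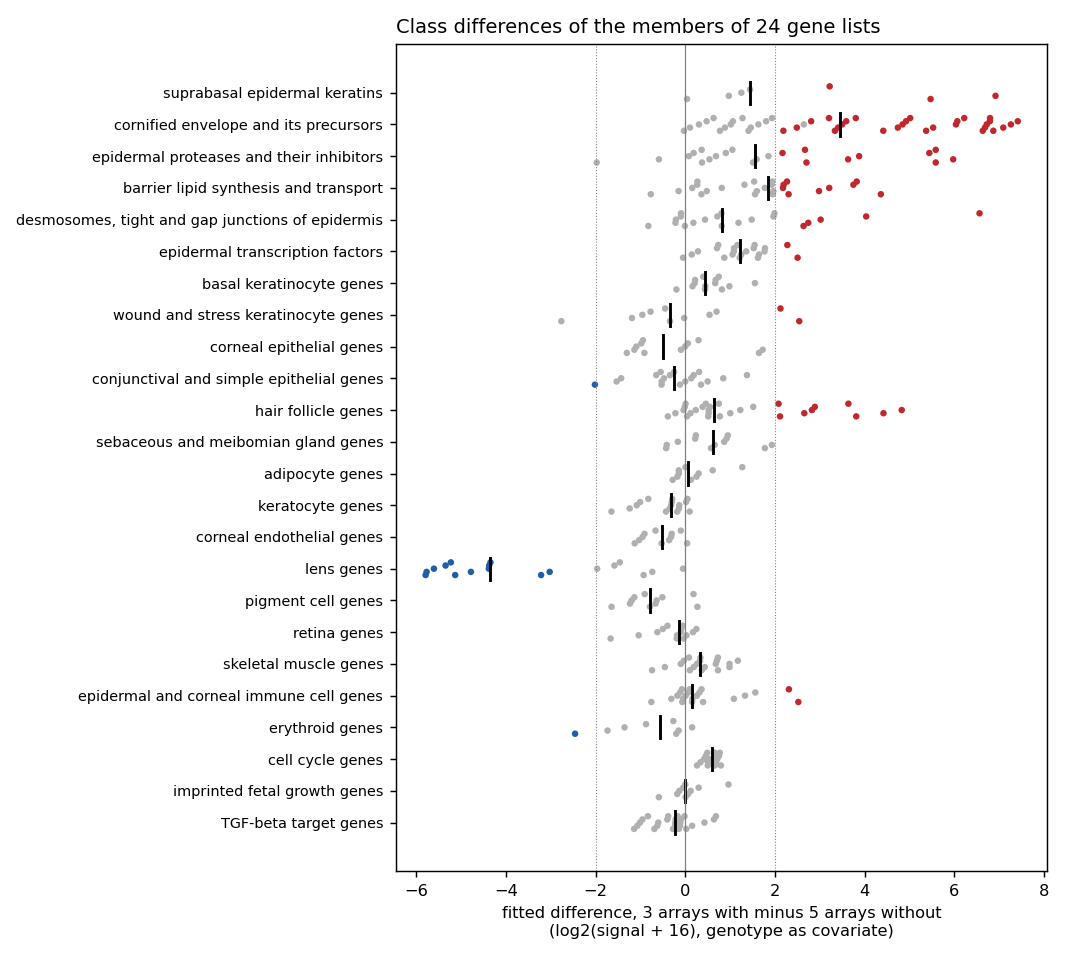
Class differences (log2(signal + 16), arrays with cornified transcripts minus arrays without, genotype as covariate) of the measured members of 24 gene lists, 1 point per gene; red and blue points are genes counted as higher or lower, the black bars are list medians and the dotted lines mark 2 and -2. Cornified envelope genes reach 7.41, lens genes reach -5.79, and the 3 lists of corneal layers have medians between -0.53 and -0.31.

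Lens transcripts made up most of the lower genes, since 12 of the 18 were in the lens list. All 18 lens genes measured had negative differences, beside 9214 of all 18193 genes. Of the lens genes, 12 were counted as lower, and their median was -4.36. Crygf, a gamma crystallin of lens fibres, gave 3.07, 28.6 and 29.2 against 1320.1, 3804, 2381, 6868 and 234, a difference of -5.79 (SE 0.98). Cryaa, alpha A crystallin, gave 3.84, 10.1 and 18.6 against 255, 2669.5, 987, 3228 and 61.3, a difference of -4.78 (SE 1.19). Crybb1, a beta crystallin, gave 19.2, 9.54 and 51.7 against 611, 4411, 2341, 7171 and 109, a difference of -5.13 (SE 1.24). The 5 arrays differed widely among themselves, with TGFB 4 and wildtype 3 high and wildtype 4 low, and all stood above the 3. Mip, the water channel of lens fibre membranes, differed by -1.97 (SE 0.92), and Cryab, the alpha crystallin also made outside the lens, by -0.74 (SE 0.32). Mip and Cryab were chosen after their values were seen. Means of the lens list were 5.18 to 5.63 (log2) in the 3 arrays and 6.70 to 10.70 in the 5. No hair follicle, immune cell or lens gene was listed at 0 on any array. Whether these lists share a source of tissue with the cornified transcripts was not tested. Gamma crystallins are closely alike in sequence, so their probe sets may share signal.

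The 6 lower genes outside the lens list were Cltrn, Hbb-b2, Crygn, Ttr, Krt18 and Ifi202b. Ttr, the thyroxine carrier made by pigment and ciliary epithelium of the eye, gave 382, 1009 and 2929 against 4379, 4531, 7622, 5965 and 6445, a difference of -2.11 (SE 0.40). Cltrn, encoding collectrin, gave 26.6, 76.2 and 259 against 678, 564, 1116, 703 and 526, a difference of -2.54 (SE 0.44). For both genes wildtype 2 lay between TGFB 1 or TGFB 2 and the 5 arrays. Hbb-b2, a beta globin of red cells, differed by -2.46 (SE 0.44), while its second, dimmer probe set overlapped, at 0.037. Ifi202b differed by -2.01 (SE 0.46). Crygn, another gamma crystallin, differed by -2.16 (SE 1.09). Ttr, Cltrn, Crygn and Ifi202b were chosen after their values were seen.

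Lists of the other tissues around the cornea gave few genes past 2. Of 11 pigment cell genes, 0 were higher or lower, with a median of -0.79, and Tyr, the first enzyme of melanin synthesis, differed by -1.65 (SE 0.53). Of 14 retina genes, 0 passed, with a median of -0.14, while 1 was lower without wildtype 2. Of 8 erythroid genes, Hbb-b2 was lower by its brighter probe set only, with a list median of -0.57. Of 19 skeletal muscle genes, 0 passed, with a median of 0.34, and Atp2a1, the calcium pump of fast muscle, was lowest in wildtype 4 (174). Of 10 imprinted fetal growth genes, 0 passed, with a median of 0.00077. Of 25 TGF-beta target genes, 0 passed, with a median of -0.23, and Skil and Pmepa1, feedback inhibitors of the pathway, were the members lower without overlap, at -0.63 (SE 0.18) and -1.14 (SE 0.26). Dimmer probe sets of both overlapped, at -0.23 for Skil and at -0.88 and -1.05 for Pmepa1. Skil was chosen after its values were seen.

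Cell cycle genes differed by little but in 1 direction. All 16 had positive differences, beside 8979 of all 18193 genes, 0 reached 2, and the median was 0.59. The 16 genes share the same arrays, so their signs are not independent. Mki67, which marks dividing cells, gave 1078, 1946 and 1999 against 935, 886, 899, 1681 and 850.1, a difference of 0.75 (SE 0.28). Wildtype 3 reached the level of the arrays with cornified transcripts, so the classes overlapped, as they did for all 16 genes.

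The class differences were mostly larger in TGFB arrays. That each of the 149 higher genes was higher within both genotypes follows from the count itself, which asked for classes that do not overlap. Of the 149 higher genes, 90 differed by at least 2 within each genotype, 57 fell short of 2 between wildtype 2 and the mean of the 3 other wildtype arrays, and 2 between the TGFB arrays. The TGFB difference was the larger for 139 of them. TGFB 2 was the highest array for 133 genes, TGFB 1 for 15 and wildtype 2 for 1, and wildtype 2 was the lowest of the 3 for 142. For the cornified envelope list, the median was 4.18 within TGFB and 2.49 within wildtype. For the hair follicle list it was 0.85 and 0.51, and for the lens list -4.79 and -3.63. Among the 5 arrays without cornified transcripts, wildtype 3 was the highest for 64 of the 149 genes, and its Krt10 signal was the highest of the 5 too. Because 1 wildtype array carries the wildtype difference, it has no replicate, and the 2 genotypes' differences were not tested against each other.

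**Figure D4:**
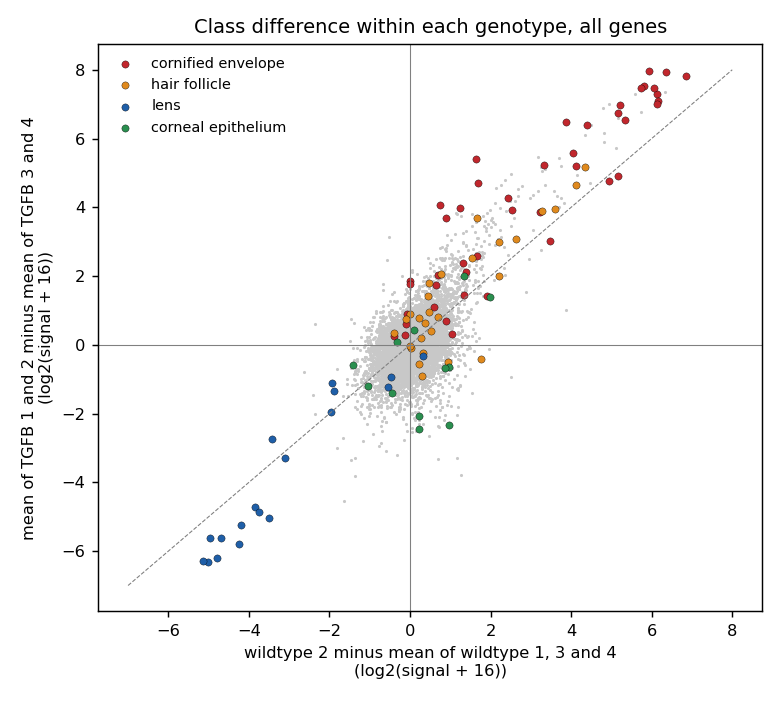
Class difference within wildtype (x axis, wildtype 2 minus the mean of wildtype 1, 3 and 4) against that within TGFB (y axis, mean of TGFB 1 and 2 minus mean of TGFB 3 and 4), both on the log2(signal + 16) scale, 1 point per gene, with 4 gene lists coloured; the dashed line marks equal differences. Most cornified envelope points lie above the line at high values on both axes, and most lens points lie at low values on both. Corneal epithelial points lie on both sides of 0 on the x axis, with a median of 0.23.

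The genotypes were compared next among arrays of like class, which is the comparison the labels define. With class as a covariate, limma called 0 of 18193 genes (0%) at an adjusted p below 0.05. The lowest adjusted p of any gene came to 0.305. Before adjustment, p lay under 0.05 for 607 genes higher (3.34%) and 786 lower (4.32%) in TGFB, 1393 in all. Within the 5 arrays without cornified transcripts, 2 TGFB and 3 wildtype, limma again called 0 genes (0%), with a smallest adjusted p of 0.253 and 1011 genes at an unadjusted p under 0.05. Genes of epidermal stress and cornification were among those with the smallest p. Krt16 gave 533, 746, 182 and 233 in TGFB 1 to 4 and 13.8, 237, 15 and 27.2 in wildtype 1 to 4, so wildtype 2, with cornified transcripts, stood level with TGFB 4, which lacks them. The genotype difference of Krt16, TGFB minus wildtype, was 2.22 (SE 0.29, limma adjusted p = 0.305) with class as a covariate. Among the 5 arrays it was 2.70 (SE 0.25, limma adjusted p = 0.253).

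Csta1 and Serpinb5, the serpin maspin, were higher in both the class and the genotype direction. Csta1 gave 2255, 3268, 357 and 294 in TGFB 1 to 4 against 41.6, 905, 61 and 115 in wildtype 1 to 4, a genotype difference of 1.86 (SE 0.28, limma adjusted p = 0.344). Serpinb5 gave 2265, 3024, 684 and 737 and 269, 1155, 334 and 332, a genotype difference of 1.16 (SE 0.16, limma adjusted p = 0.305). Amtn, which encodes amelotin of enamel and junctional epithelium, had the largest of these differences and went the other way by class. Its TGFB signals were 46.5, 45.3, 261 and 227 and its wildtype signals 5.38, 2.29, 23.5 and 24.7, a genotype difference of 2.55 (SE 0.30, limma adjusted p = 0.305). The groups did not overlap, and TGFB 3 and TGFB 4 were the highest. Fmo1, a drug-oxidising enzyme, was lower in all 4 TGFB arrays (243, 216, 109.6 and 143) than in any wildtype array (514, 497, 479 and 332), a genotype difference of -1.46 (SE 0.21, limma adjusted p = 0.315). The other genes with the smallest p with class as a covariate were Serpinb2 and Sult2b1, which were higher, and Slc26a7, Adh7, Kcnt2, Ecrg4 and Calml4, which were lower. Their genotype differences were 1.62, 1.59, -1.25, -1.24, -0.93, -1.49 and -0.96. Their limma adjusted p-values lay between 0.344 and 0.374.

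**Figure D5:**
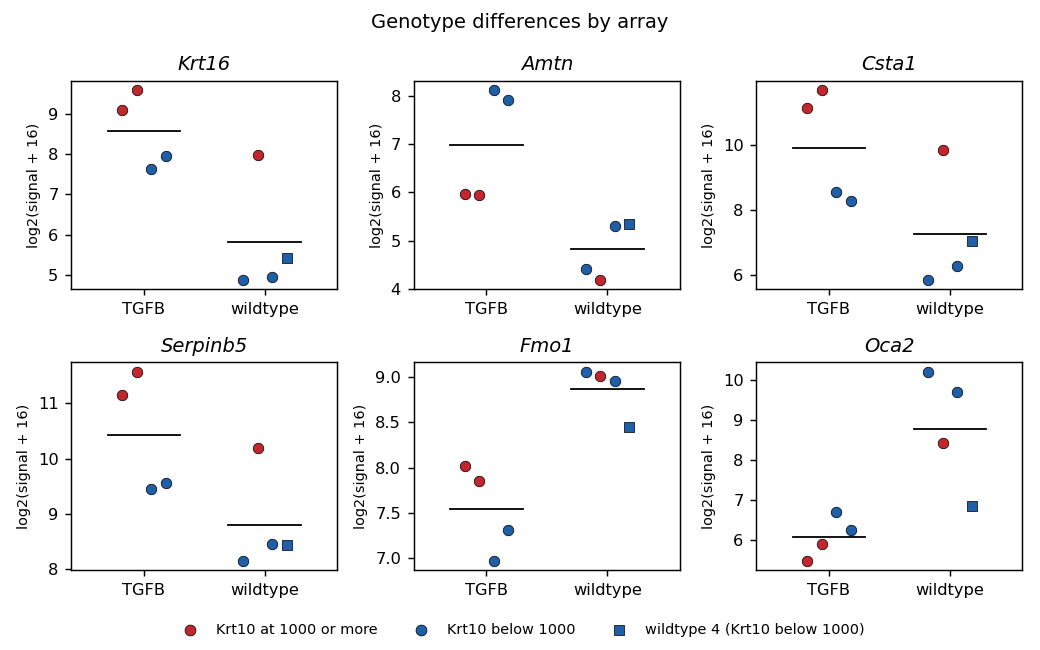
Values (log2(signal + 16)) of 6 genes in the 4 TGFB and 4 wildtype arrays, 1 point per array, with lines at the group means; red points have a Krt10 signal of 1000 or more, blue points less, and the square is wildtype 4. For Krt16, Csta1 and Serpinb5 the red wildtype point lies near or above the blue TGFB points, and for Oca2 the wildtype 4 square lies apart from the other wildtype points.

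One array decided the genotype counts. Without wildtype 4, limma with class as a covariate called 129 genes, 33 higher (0.181%) and 96 lower (0.528%) in TGFB, and within the 4 remaining arrays without cornified transcripts it called 109, of which 38 were shared. Wildtype 4 had the highest 3'/5' signal ratios of Gapdh and Actb, 6.41 and 6.60, against 2.19 to 4.31 and 2.19 to 3.61 elsewhere, and ratios of this kind grow with RNA decay. Its corneal epithelial mean was 7.91 (log2), while wildtype 1, 2 and 3 lay between 9.13 and 9.38, and the TGFB arrays between 7.71 and 8.76. The part of these features in the counts was not tested. The 129 calls also rested on the class term and on single arrays. Without wildtype 4 and with no class term, 2 genes were called, and leaving out a further array gave 1 (TGFB 4), 5 (TGFB 3), 10 (wildtype 3), 53 (wildtype 1), 81 (TGFB 1), 128 (TGFB 2) or 254 (wildtype 2). With an offset of 1 in place of 16, 0 were called by limma, with 2493 genes at an unadjusted p under 0.05.

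Among the genes called without wildtype 4, named here after their values were seen, were 5 higher in TGFB from the epidermal and keratinocyte lists and 4 lower from the pigment cell list. Most of the 33 called higher were in none of the lists. Cxcl14, a chemokine of epithelia, had a difference of 1.91 (SE 0.22, limma adjusted p = 0.0176), and Sprr1a, an envelope precursor, of 1.61 (SE 0.22, limma adjusted p = 0.0257). Krt16, Csta1, Serpinb5 and Serpinb2 were also called, at 2.26, 2.04, 1.19 and 1.65. Of the cornified envelope list 2 of 44 were called higher, and the list median was 0.30, beside -0.020 for all genes. In the 5 lists of suprabasal keratins, basal keratinocyte genes, epidermal transcription factors, junctions and barrier lipids, limma called 0 of 87 genes. At an unadjusted p under 0.05, limma gave 20 of these higher and 1 lower, beside 1110 higher and 1730 lower of all 18193 genes. The class term has 2 levels, so amounts of cornified transcripts within a class were not adjusted for. With all 8 arrays, the median genotype differences of these 5 lists, in the order given, were 0.44, 0.40, 0.40, 0.35 and 0.43. Among the 5 arrays without cornified transcripts they were 0.075, 0.44, 0.16, 0.35 and 0.013. For the envelope list the 2 medians were 0.28 and -0.073. The part of epidermal amount in these differences was not tested. Without wildtype 4, the list of proteases and inhibitors had 2 of 22 called higher (median 0.60), and the wound and stress list 1 of 11 (median 0.95). Of the pigment cell list 4 of 11 were called lower and all 11 were negative, with a median of -1.68, beside 9655 negative of all 18193 genes. In the retina list 2 of 14 were called lower too and 11 of 14 were negative, with a median of -0.89. The 2 were Guca1a, a calcium sensor of photoreceptors, and Rlbp1, a retinoid carrier of pigment epithelium and glia. The part of retinal tissue in the pigment cell result was not tested. Oca2, a transporter of the pigment granule, gave TGFB signals of 28.7, 43.4, 87.8 and 60.2 and wildtype signals of 1164, 326, 816 and 98.8, where wildtype 4 lay near the TGFB arrays. Its difference without wildtype 4 was -3.18 (SE 0.24, limma adjusted p = 0.00472), and with all 8 arrays -2.54 (SE 0.66, limma adjusted p = 0.509). Over the settings and further arrays left out beside wildtype 4, the lowest limma adjusted p lay between 0.00042 and 0.056.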

How the data were processed

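RNA of 8 mouse cornea arrays was measured on a 1-colour Affymetrix platform with 45101 probe sets. The deposited table holds linear intensities, while the sources used here do not name the tool and scaling behind them. The deposited intensities have a 2% trimmed mean of 150 on every array, so no further normalization was applied. Median signals ran from 26.3 to 34.4, and signals under 16 made up 34.9% to 40.9% of an array. Precision is limited by how few arrays there are. Arrays are numbered within a group in record order.

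Values were taken as log2(signal + 16). Platform annotation of 2016, updated through Entrez IDs to RefSeq (GRCm38.p6), named the probe sets, and the brightest probe set by mean log2 value stood for each of 18193 genes. No filter on low values was used. The class difference was the class coefficient of limma 3.58.1 (R 4.3.3) beside genotype, given with its SE and no p. Genotype was tested with limma (lmFit and eBayes, 8.74 total degrees of freedom with class as covariate), p-values adjusted over all genes by Benjamini-Hochberg and called under 0.05. The fits were tested on simulated data.

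The sorting gene, members and lists were chosen with earlier results of these data known. The rule for named genes took the 4 class markers, up to 12 genes per direction by class difference without overlap, 4 members per list by size, 11 corneal and conjunctival genes, and for each genotype test the 6 genes per direction with the smallest p. Genes named outside it are marked as chosen after their values were seen. Alternatives were quantile normalization, median centring, an offset of 1 or 32, the mean of a gene's probe sets, a filter at the 40th percentile, other sizes, other sorting genes, variance trend, robust eBayes, array weights, other covariates and leaving out each array. Further fits without wildtype 4, the other probe sets and the motif TGACTCA were added after seeing the data.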

Additional observations from a re-analysis of the deposited data

Results flagged for a closer look

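Within each genotype's 4 arrays, 418 checks of a gene or list asked whether 1 array stood far from the other 3. The measure was its gap to the nearest array as a share of the whole range, against a limit of 0.829, and 31 passed. Chance flags about 1 in 20 groups, and the genes share the same arrays, so these flags are not independent.

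Of the 31, 18 were wildtype 2 as the highest wildtype array, as it must tend to be after the sort by Krt10. The genes were Hrnr (0.861), Krt1 (0.831), Dsc1 (0.906), Serpinb12 (0.876), Klk7 (0.856), Klk5 (0.844), Serpina12 (0.984), Krt25 (0.87), Krt79 (0.955), Acer1 (0.94), Krt71 (0.831), Alox12b (0.98), Krt27 (0.888), Sult2b1 (0.947), Gjb5 (0.89), Serpinb2 (0.913) and Serpinb5 (0.853), and the barrier lipid list mean was flagged too (0.852). The brackets give the share of the range.

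Wildtype 4 was the lowest wildtype array for Fmo1 (0.834) and for the corneal epithelial list mean (0.832), and the highest for Lum (0.86) and for Mest (0.879), an imprinted gene of fetal growth. Wildtype 3 was the lowest for Cxcl5 (0.894), a neutrophil chemokine, and for the adipocyte list mean (0.874), and wildtype 1 was the highest for Aqp5 (0.935), a water channel of corneal epithelium and glands. Among TGFB arrays, TGFB 1 was the lowest for Krt12 (0.9) and the highest for Sprr3 (0.929). TGFB 2 was the lowest for Cxcl5 (0.903) and the highest for Krt2 (0.876), and TGFB 4 was the highest for Mip (0.903) and Crygn (0.829).

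For 5 genes the arrays with cornified transcripts lay on one side within TGFB and on the opposite side within wildtype, and this difference was not tested. In the wildtype arrays the differences were -0.35 for Mpv17, -0.54 for B230217C12Rik, 0.24 for Bok, 0.76 for Dsc2 and 0.26 for Krt6a. In the TGFB arrays they were 0.17, 0.22, -1.54, -0.96 and -0.99 in the same order. Each wildtype value rests on wildtype 2 alone.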

How the results depend on the processing

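The class counts of 149 higher and 18 lower genes stayed within a factor of 1.5 under several settings. These were an offset of 32, both normalizations, the mean of probe sets, the filter and no covariate. Sorting by Krt1, Flg or Krtdap gave the same classes of arrays, so it could not change the counts. The class counts moved with an offset of 1 (249 higher, 42 lower), a size of at least 1 (400 higher, 89 lower) and a size of at least 3 (76 higher). Leaving out 1 array gave 128 to 220 higher and 14 to 38 lower genes, the highest counts without wildtype 2. The genotype calls of limma stayed at 0 under each setting with all arrays, with array weights at 2467 genes of unadjusted p under 0.05. Leaving out 1 array gave 0 to 129 calls with class as covariate and 0 to 109 within the 5 arrays, the nonzero counts only without wildtype 4. Without wildtype 4, limma called 118 after quantile normalization, 190 after median centring, 98 with an offset of 32 and 118 with the mean of probe sets, against 2 with no class term and 0 with an offset of 1. With a further array left out it called 1 to 254. In these settings the smallest adjusted p ran from 0.00042 to 0.056. The class by genotype test gave p = 1 with a lower and a higher Krt10 limit too (Fisher's exact test). Of 3673 gene values, 150 moved by at least the residual standard deviation, the spread between arrays left by the gene's fit. Among genes without overlap 0 reversed, and 37 of 500 list medians moved. The cause was not tested. No paired analysis was possible because replicate numbers follow record order and pair no arrays. Signals under 16, at least 34.9% of each array, limit what dim genes can show.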
